A study of Homo sapiens with 24 samples.

Results

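The chromosomal passenger and cytokinesis genes were followed in RNA-seq of A549, an established human cell line derived from lung adenocarcinoma. The group held 10 of the 58721 genes counted, chosen by symbol: AURKB, BIRC5, INCENP and CDCA8 of the chromosomal passenger complex, and ECT2, RACGAP1, PRC1, ANLN, CEP55 and CIT of the central spindle, cleavage furrow and midbody. All 10 were found and all 10 passed the filter on low counts in each comparison. The 24 libraries came from 3 experiments, whose control cells the labels give as WT. In the first, 4 libraries each received 25 nM of pooled siRNAs against MYBL2 (siMYBL2), pooled siRNAs against FOXM1 (siFOXM1) or scrambled siRNA (siControl), so both single knockdowns share their control libraries. In the second, 3 libraries received both siRNA pools (siBoth) and 3 received scrambled siRNA (siControl_Both), also given as 25 nM. Whether this was the dose of each pool or of both together was not stated. In the third, 3 libraries were treated with 20 µM FDI-6 for 24 h (FDI6) and set against 3 control libraries (control_FDI6), for which the study names DMSO. FDI-6 is a small molecule that blocks binding of FOXM1 to DNA. The time of harvest after transfection was not given for these libraries, and the labels mention 3 replicates per condition although 4 libraries are present for each single knockdown.

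Cell division ends with the chromosomal passenger complex and the cytokinesis machinery. INCENP is the scaffold of the complex, AURKB its kinase, and BIRC5 (survivin) and CDCA8 (borealin) the subunits that place it on chromatin. At anaphase the complex moves to the central spindle, which PRC1 builds by cross-linking antiparallel microtubules. There RACGAP1 binds the GTP exchange factor ECT2, which activates RhoA, anillin (ANLN) ties the contractile ring together, and citron kinase (CIT) and CEP55 act at the midbody before abscission. Genes of this kind are transcribed late in the cell cycle, and MYBL2 with the MuvB complex and FOXM1 are known activators of that program.

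The promoters were examined first, because MuvB binds the cell cycle genes homology region (CHR), a short element that is often found with a CCAAT box. RefSeq start sites (GRCh38.p14) were matched for 8 of the 10 genes, and windows of 300 bases, 250 before and 50 after the start, were searched on both strands. TTTGAA or TTCGAA, the CHR letters, stood in 7 of the 8 promoters, against 19.5% of 27305 genes with a promoter in the same table. CCAAT stood in 7 of the 8, against 39.7% of genes. Both stood in 6 of the 8 (INCENP, CDCA8, ECT2, PRC1, CEP55 and CIT), against 7.8% of genes. The forkhead word TAAACA was in none of the 8 windows and in 14.7% of all genes, and its absence says only that these letters are not in the windows. BIRC5 and RACGAP1 were not matched. The 120 bases before the start are printed for the 3 genes that fell most often in the knockdowns (AURKB, INCENP and CEP55) and for CDCA8, a passenger subunit that was not called in any comparison. Capitals mark CHR and CCAAT matches on either strand, sequences run 5′ to 3′ on the gene's strand, and a match is a description of letters, not evidence of binding. INCENP lies at chr11:62123891-62124010 (plus strand), CEP55 at chr10:93496492-93496611 (plus), AURKB at chr17:8210226-8210345 (minus) and CDCA8 at chr1:37692396-37692515 (plus).
INCENP: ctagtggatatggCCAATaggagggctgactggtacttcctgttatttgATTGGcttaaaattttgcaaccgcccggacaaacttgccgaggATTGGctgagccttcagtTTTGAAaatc
CEP55: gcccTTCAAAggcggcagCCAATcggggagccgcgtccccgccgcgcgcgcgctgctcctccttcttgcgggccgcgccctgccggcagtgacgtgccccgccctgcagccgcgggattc
AURKB: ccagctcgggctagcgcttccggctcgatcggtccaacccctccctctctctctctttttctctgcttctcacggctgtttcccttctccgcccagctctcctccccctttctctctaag
CDCA8: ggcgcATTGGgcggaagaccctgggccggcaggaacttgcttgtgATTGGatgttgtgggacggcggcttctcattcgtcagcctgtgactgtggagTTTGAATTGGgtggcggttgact
INCENP and CDCA8 carried a CHR close to the start with CCAAT boxes upstream. In CDCA8 a further CCAAT match overlapped the last base of the CHR and ran downstream of it. CEP55 carried a CHR and a CCAAT box at the far end of the printed bases, and another CHR that begins 3 bases before the start and runs past the printed bases, so it is not in capitals. AURKB, for which RefSeq lists more than 1 start, had no CHR in its windows, and its CCAAT match was upstream of the printed bases.

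Libraries held 16487394 to 30140550 read pairs on genes. MYBL2 stood at 4.2% of control in siMYBL2 and 4.9% in siBoth, and FOXM1 at 9.6% in siFOXM1 and 9.7% in siBoth. Epithelial keratins were abundant (KRT8 at 1573 to 5600 CPM, a gene's read pairs scaled to a common library size). The epithelial markers EPCAM (1.645 to 37.74 CPM) and CDH1 (9.464 to 90.83 CPM) were far below KRT8. The alveolar type II and lung lineage markers NKX2-1, SFTPB, SFTPC and SFTPA1 stayed at or under 0.325 CPM, while NAPSA of that list was at 0.538 to 3.03 CPM. The fibroblast marker COL1A1 was at 4.843 to 57.75 CPM. The leukocyte genes CD3E and PTPRC were at 0 and at most 0.234 CPM. The summed CPM of the 6 epithelial markers was lower in FDI6 (5940 to 6886) than in control_FDI6 (9735 to 10490), as was that of the fibroblast markers (5.92 to 9.57 against 18.2 to 21.0). That of the 4 leukocyte markers, led by CD14, was higher in siMYBL2 (8.34 to 15.3) than in siControl (4.31 to 7.66) and in siBoth (10.1 to 12.2) than in siControl_Both (4.22 to 7.50). Pairs that did not align made up 9.09% to 10.9% in siBoth and 7.68% to 7.92% in siControl_Both, against 1.73% to 3.03% in the other libraries. The part of these in the results was not tested. In bulk RNA, fewer cells in mitosis and less RNA per cell cannot be told apart.

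Per kilobase of transcript, the level in siControl was highest for ECT2 (85.1 ± 9.38 CPM per kb, SD, n = 4). AURKB (68.3 ± 11.9) and BIRC5 (65.1 ± 6.71) came next and differed by less than their SD, as did ANLN (52.4 ± 6.45) and CEP55 (50.8 ± 5.46). RACGAP1 stood at 44.3 ± 1.98, INCENP at 24.2 ± 0.952, CDCA8 at 19.9 ± 3.25 and CIT at 10.8 ± 0.853 CPM per kb. AURKB and BIRC5 were thus counted well above INCENP and CDCA8, although all 4 are subunits of 1 complex. PRC1 was listed at only 0.557 ± 0.114 CPM per kb, from 13 to 60 read pairs a library over all 24 libraries. In GENCODE V44, 57.6% of PRC1 exon bases also belong to a read-through gene on the same strand (ENSG00000284946) and 34.3% to PRC1-AS1 on the opposite strand, and HTSeq does not assign a pair that matches more than 1 gene. PRC1 is therefore measured only in part, and its values are uncertain.

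**Figure D1:**
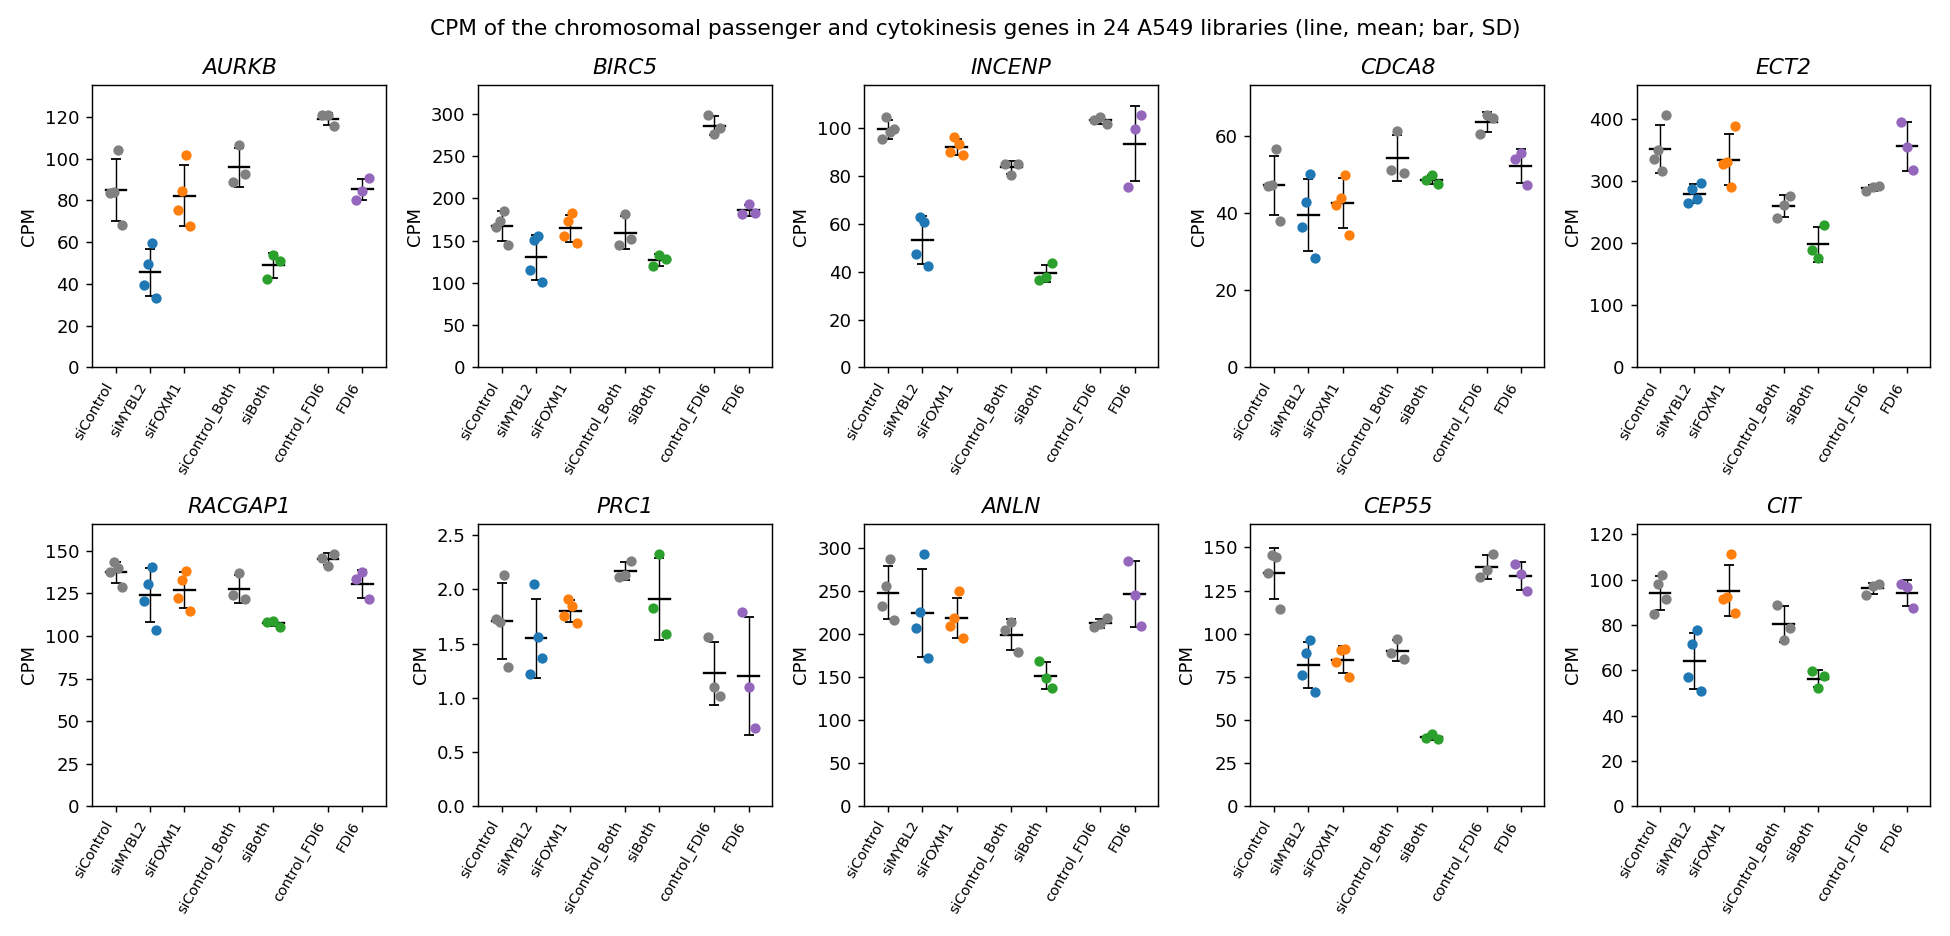
CPM (linear axis from 0) of each of the 10 genes in the 24 libraries, 1 point a library, with the group mean as a line and the SD as a bar; grey points are the controls of the 3 experiments. The siMYBL2 and siBoth points of AURKB, INCENP and CEP55 lie below all of their controls, and in siFOXM1 the same separation is seen for CEP55 among the 3. It is not particular to these genes: ECT2 and CIT also separate in siMYBL2. In siBoth, BIRC5, CDCA8, ECT2, RACGAP1, ANLN and CIT do so too. In FDI6, AURKB, BIRC5, CDCA8 and RACGAP1 lie below all of their controls and ECT2 lies above. At an unadjusted p under 0.05 in edgeR stood 32.2% of all genes in siMYBL2, 29.6% in siBoth and 47.7% in FDI6. The share of all genes that separate was not counted.

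Knockdown of MYBL2 lowered 3 of the 10 genes, INCENP, AURKB and CEP55, and raised none by edgeR or DESeq2. At an unadjusted p under 0.05, where 32.2% of all genes stood, 6 members were lower and 0 higher. A gene was called where the adjusted p of edgeR's quasi-likelihood test was under 0.05 and the fold change over 1.5, a rule that called 3.52% of all 16065 genes lower and 4.38% higher. INCENP was at 47.4, 62.9, 60.9 and 42.5 CPM in siMYBL2 replicates 1 to 4 and at 95.3, 104.7, 98.5 and 99.5 CPM in siControl. AURKB was at 39.6, 49.6, 59.4 and 33.4 CPM against 83.6, 84.0, 104.1 and 68.0. For both genes every knockdown library was below every control library, and replicate 4 was the lowest of the siMYBL2 libraries. INCENP fell by 0.88 ± 0.123 on the log2 scale (SE, edgeR adjusted p = 0.00203), to 54.2% of control. AURKB fell by 0.89 ± 0.186 (edgeR adjusted p = 0.0121), to 54.1% of control. CEP55, which recruits the abscission machinery to the midbody, was at 76.1, 88.8, 96.3 and 66.1 CPM in siMYBL2 and at 135.4, 145.5, 144.5 and 114.2 CPM in siControl. The groups did not overlap, and CEP55 fell by 0.71 ± 0.127 on the log2 scale (edgeR adjusted p = 0.00594). FOXM1 itself also fell in siMYBL2, by 0.73 ± 0.138 (edgeR adjusted p = 0.00754), so MYBL2 was not the only one of the 2 factors to be reduced in these libraries.

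The other members did not reach the 1.5-fold limit after MYBL2 knockdown. CIT, a kinase of the midbody, was at 56.8, 71.4, 77.6 and 50.9 CPM in siMYBL2 and at 84.9, 98.0, 101.8 and 91.6 CPM in siControl. These groups also stood apart, and CIT passed the adjusted p (edgeR, 0.023) with a log2 fold change of -0.54 ± 0.133, just inside the fold limit. It was called when siMYBL2 replicate 2, siMYBL2 replicate 3 or siControl replicate 1 was left out (log2 -0.60, -0.65 and -0.59). ECT2 passed the adjusted p likewise (edgeR, 0.0317) at a log2 fold change of -0.32 ± 0.085, with 265 to 297 CPM in siMYBL2 and 316 to 406 CPM in siControl. The remaining passenger subunits overlapped with control: BIRC5 had a log2 fold change of -0.35 ± 0.144 (edgeR adjusted p = 0.13) and CDCA8 of -0.24 ± 0.178 (edgeR adjusted p = 0.383). With the replicate block both passed the adjusted p within the fold limit (edgeR, 0.000132 for BIRC5 and 0.00299 for CDCA8), as did RACGAP1 (0.0321) and ANLN (0.0295). RACGAP1, ANLN and PRC1 had values of -0.14, -0.13 and -0.13 without it. The value of PRC1 is uncertain: its read-through gene had -0.62 ± 0.289 (edgeR adjusted p = 0.174), and PRC1 summed with that gene had -0.51, without a call. All 10 log2 fold changes were negative, with a median of -0.33 beside 0.01 over all genes.

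Knockdown of FOXM1 lowered CEP55 alone among the members. CEP55 was at 83.6, 90.4, 91.2 and 74.7 CPM in siFOXM1, below each of the siControl libraries, whose lowest was at 114.2 CPM. It fell by 0.66 ± 0.094 on the log2 scale (edgeR adjusted p = 0.0111), to 63.2% of control, in a comparison that called 0.591% of 15892 genes lower and 0.0755% higher. The call was lost in 2 of the 8 fits that left out a library, through the adjusted p and not the fold change. Without siFOXM1 replicate 1 the edgeR adjusted p was 0.0577 and without siControl replicate 1 it was 0.053, both at -0.66. Over the 8 fits the log2 fold change ran from -0.73 to -0.61. With the replicate number as a block, which raised the genes called lower to 1.47% and those called higher to 1.05%, the edgeR adjusted p of CEP55 was 3.04e-14. The passenger subunits showed values near 0 in siFOXM1, at -0.04 ± 0.149 for AURKB, -0.02 ± 0.094 for BIRC5, -0.11 ± 0.052 for INCENP and -0.14 ± 0.138 for CDCA8. With the block INCENP (edgeR adjusted p = 0.0243), CDCA8 (0.0146), RACGAP1 (0.0165) and ANLN (6.09e-05) passed the adjusted p at log2 values from -0.11 to -0.18, inside the fold limit. The members' median was -0.09, beside 0 over all genes.

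Double knockdown lowered the same 3 genes as MYBL2 knockdown, CEP55, INCENP and AURKB, against 3.64% of 15812 genes called lower and 2.8% called higher. With upper-quartile scaling the genes called changed from 576 lower and 443 higher to 417 lower and 610 higher. CEP55 was at 39.4, 41.8 and 38.8 CPM in siBoth replicates 1 to 3 and at 88.7, 96.7 and 85.0 CPM in siControl_Both. INCENP was at 36.5, 37.7 and 43.5 CPM against 85.1, 80.4 and 85.2. AURKB was at 42.3, 53.7 and 50.8 CPM against 88.6, 106.3 and 92.7. In each of the 3 the highest siBoth library was well below the lowest control, in an experiment where the siBoth libraries also had more pairs that did not align. CEP55 fell by 1.17 ± 0.084 on the log2 scale (edgeR adjusted p = 0.000293), while the log2 fold change was -1.09 ± 0.091 for INCENP (edgeR adjusted p = 0.000515) and -0.97 ± 0.115 for AURKB (edgeR adjusted p = 0.0021). CDCA8, by contrast, was at 48.8, 49.9 and 47.6 CPM in siBoth and at 51.2, 61.3 and 50.6 CPM in siControl_Both, a log2 fold change of -0.16 ± 0.095 (edgeR adjusted p = 0.304). Its siBoth libraries lay just below the controls. CIT (-0.51 ± 0.099, edgeR adjusted p = 0.0159) and ANLN (-0.40 ± 0.106, edgeR adjusted p = 0.0456) passed the adjusted p without the fold. ECT2 (-0.39), BIRC5 (-0.33), RACGAP1 (-0.25) and PRC1 (-0.18) did not pass, with edgeR adjusted p from 0.0626 to 0.623. With the replicate block ECT2 (edgeR adjusted p = 0.000601), BIRC5 (0.00199) and RACGAP1 (0.0105) passed at like values, still inside the fold limit. The correction for GC and length moved ANLN to -0.23 (edgeR adjusted p = 0.181) and ECT2 to -0.21 (0.182), and both passed when it was joined with the block (0.00495 and 0.00865). The read-through gene that shares exons with PRC1 fell by 0.64 ± 0.155 (edgeR adjusted p = 0.033), and PRC1 summed with it had -0.55, without a call. All 10 values were negative, with a median of -0.39 beside 0.02 over all genes. With the replicate block, which called 4.71% of genes lower for siMYBL2 and 5.08% for siBoth, the members called were again AURKB, INCENP and CEP55 in both.

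FDI-6 gave another picture, in which BIRC5 fell and ECT2 was above control. BIRC5, the survivin gene, was at 182.0, 192.8 and 182.2 CPM in FDI6 and at 298.4, 276.2 and 283.0 CPM in control_FDI6. It fell by 0.62 ± 0.061 on the log2 scale (edgeR adjusted p = 1.88e-05), to 65.0% of control, and it was the 1 member called, where 5.77% of 15240 genes were called lower and 8% higher. A count of 1 in 10 is near that background. AURKB was at 80.3, 84.7 and 90.7 CPM against 120.8, 120.7 and 115.4, which passed the adjusted p (edgeR, 0.000315) at -0.48 ± 0.070, inside the fold limit. ECT2 was at 396.1, 355.6 and 317.3 CPM in FDI6 and at 284.3, 291.0 and 291.9 CPM in the control, a log2 fold change of 0.30 ± 0.077 (edgeR adjusted p = 0.00891), also inside the limit. CDCA8 stood at -0.28 ± 0.082 (edgeR adjusted p = 0.0181). CEP55, the gene shared by all 3 knockdowns, was at 140.5, 134.5 and 124.5 CPM in FDI6 and at 132.6, 137.1 and 146.2 CPM in the control, with overlapping groups and a log2 fold change of -0.06 ± 0.071. INCENP was at 75.6, 99.7 and 105.4 CPM in FDI6 and at 103.3, 104.8 and 101.8 CPM in the control, and had -0.14 ± 0.105. Once GC content and length of the transcripts were corrected for, the value of ECT2 became -0.02 and that of AURKB -0.20, and BIRC5 at -0.56 no longer passed the fold limit although its edgeR adjusted p was 3.59e-07. CEP55 moved to -0.18 (edgeR adjusted p = 0.0113), CIT from -0.03 to -0.22 (0.0112) and RACGAP1 from -0.15 to -0.24 (0.00253), and all 3 then passed the adjusted p inside the fold limit.

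**Figure D2:**
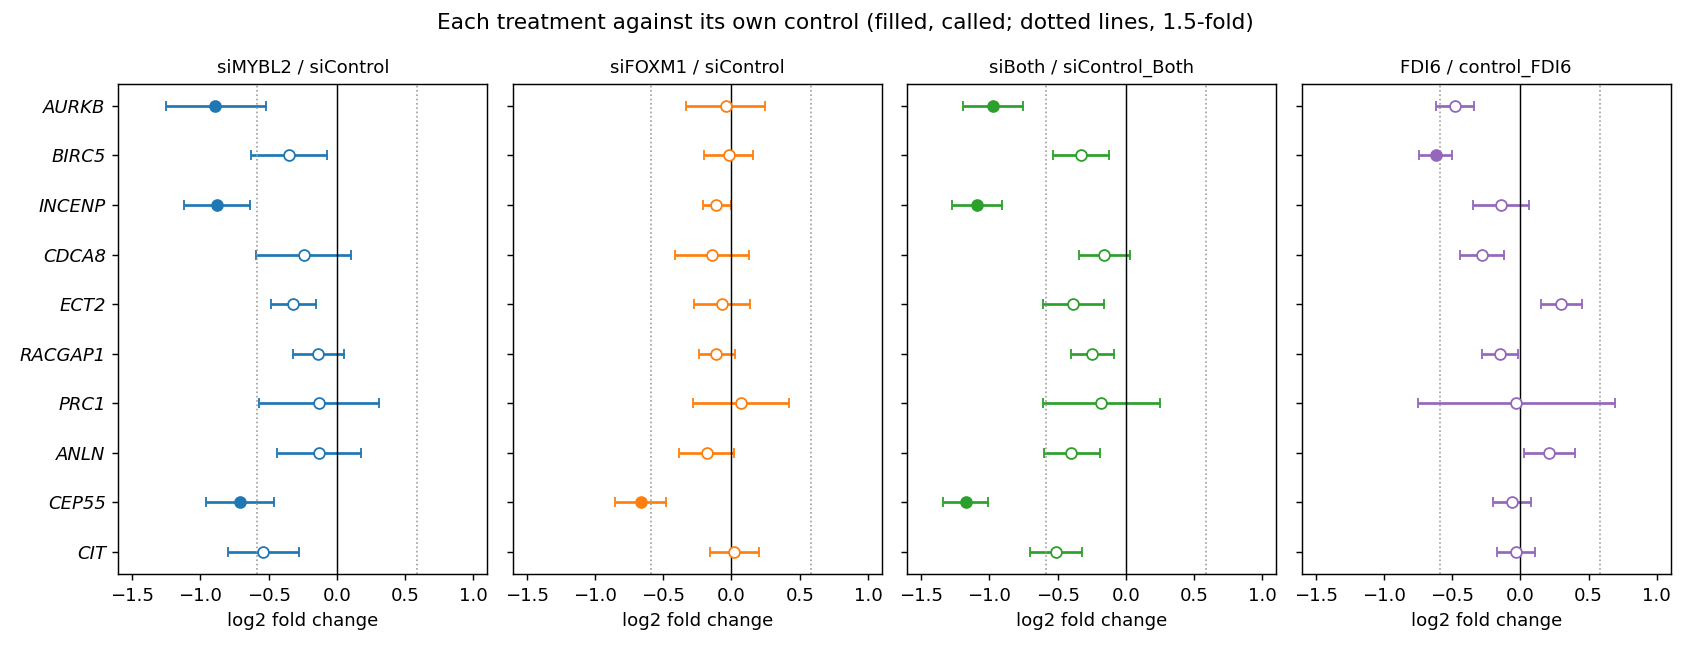
log2 fold change (horizontal axis) of the 10 genes in each treatment against its own control, with 95% intervals as bars; filled points were called and dotted lines mark a 1.5-fold change. INCENP, AURKB and CEP55 are filled for siMYBL2 and siBoth, CEP55 for siFOXM1 and BIRC5 for FDI6.

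The balance of the passenger subunits was followed as a ratio of their RNA per kilobase within each library, a description without a test. It does not measure the proteins of the complex. The log2 ratio of CDCA8 to INCENP was 0.35 ± 0.14 (SD, n = 4) in siMYBL2 and -0.29 ± 0.25 in siControl, and 1.11 ± 0.16 (n = 3) in siBoth against 0.17 ± 0.20 in siControl_Both. The treated libraries lay above the control libraries in both experiments. The log2 ratio of BIRC5 to INCENP was likewise 1.96 ± 0.04 in siMYBL2 against 1.42 ± 0.16, and 2.37 ± 0.13 in siBoth against 1.60 ± 0.22, again without overlap. The ratio of AURKB to INCENP overlapped with control, at 1.48 ± 0.15 in siMYBL2 and 1.48 ± 0.26 in siControl, and at 2.04 ± 0.17 in siBoth and 1.92 ± 0.18 in siControl_Both. In siFOXM1 these 3 ratios overlapped with siControl. In FDI6 the ratio of BIRC5 to INCENP was lower than control (1.68 ± 0.24 against 2.14 ± 0.07), as was that of AURKB to INCENP (1.61 ± 0.18 against 1.93 ± 0.02). The ratios were not corrected for GC and length. With that correction the log2 fold changes in FDI6 were -0.56 for BIRC5, -0.20 for AURKB and -0.01 for INCENP, which brings AURKB nearer to INCENP.

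**Figure D3:**
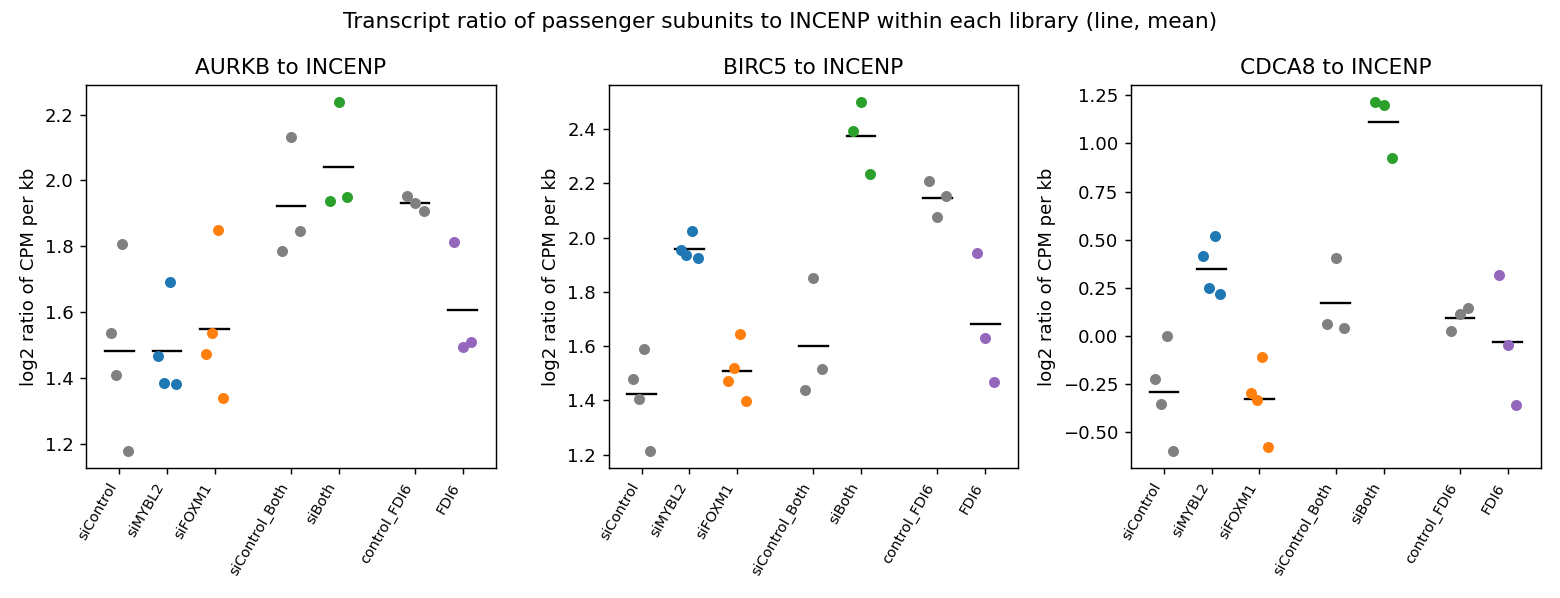
log2 ratio of CPM per kilobase of AURKB, BIRC5 and CDCA8 to INCENP within each library (vertical axes do not start at 0), 1 point a library and the group mean as a line. The ratios of BIRC5 and CDCA8 to INCENP lie above control in siMYBL2 and siBoth (differences of 0.54 to 0.94), while AURKB overlaps with its controls there.

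The 2 knockdowns were also compared with each other, since a call in one and not in the other does not show a difference. siMYBL2 set directly against siFOXM1 had lower AURKB (-0.86 ± 0.183, edgeR adjusted p = 0.00478), INCENP (-0.79 ± 0.107, edgeR adjusted p = 0.000246) and CIT (-0.57 ± 0.128, edgeR adjusted p = 0.00654). These were 3 of 10 members in a comparison in which 25.3% of 16538 genes differed at an adjusted p under 0.05, so the share of members was near the background. Of those genes 2191 were lower and 1988 higher, which upper-quartile scaling turned to 1699 and 2499. CEP55 was the counterpart: its difference was -0.05, and its 95% interval ran from -0.28 to 0.18. With the replicate block BIRC5 (-0.35, edgeR adjusted p = 1.44e-05) and ECT2 (-0.25, edgeR adjusted p = 4.1e-05) differed as well, when 51.0% of all genes did.

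The siBoth effect minus the siFOXM1 effect was negative for INCENP (-0.99 ± 0.096, edgeR adjusted p = 5.41e-05), AURKB (-0.94 ± 0.210, edgeR adjusted p = 0.0226), CEP55 (-0.52 ± 0.130, edgeR adjusted p = 0.0398) and CIT (-0.53, edgeR adjusted p = 0.0483). Across all genes 4.38% of 16938 differed. Of the 4, INCENP passed whichever library was left out. AURKB missed the threshold without siBoth replicate 1 (edgeR adjusted p = 0.054) or without siControl_Both replicate 2 (0.0616), and CEP55 and CIT missed it in 10 and 12 of the 14 fits that left out a library. With the replicate block, BIRC5 (-0.31), ECT2 (-0.33) and ANLN (-0.22) were added and 25.7% of genes differed. The siBoth and siFOXM1 libraries came from separate experiments. A difference between experiments therefore cannot be told apart from one between treatments.

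No member differed between the siBoth and siMYBL2 effects at an adjusted p under 0.05 in edgeR, where 0.176% of 17012 genes did. One member, CEP55, was under 0.05 unadjusted, as were 7.8% of genes. Its value, the most negative of the 10, was -0.47 ± 0.169 (edgeR adjusted p = 0.516). It passed with the replicate block (-0.46, edgeR adjusted p = 0.003), when 7.05% of genes differed. The siBoth effect minus the sum of both single effects gave no call among the members or among all 17336 genes (0%, with 3.2% of genes and no member at an unadjusted p under 0.05), and the replicate block called 1.25% of genes and no member. For CEP55 this departure from additivity was 0.20 ± 0.221, with a 95% interval from -0.24 to 0.63, and for INCENP it was -0.10, from -0.51 to 0.30. Here too siBoth and the single knockdowns were separate experiments, and the part of the experiment in these contrasts was not tested. CEP55 also stood at different levels in their controls (134.9 CPM in siControl and 90.1 CPM in siControl_Both).

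The FDI6 effect minus the siFOXM1 effect separated BIRC5 (-0.61 ± 0.122, edgeR adjusted p = 0.00327) from CEP55 (0.60 ± 0.127, edgeR adjusted p = 0.00432). The compound and the knockdown of its target thus differed in both directions on these 2 genes. Such differences were found for 20.9% of 17026 genes, so 2 of 10 members is the background share. The compound was given for 24 h, and the harvest time of the siRNA libraries is not given here.

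**Figure D4:**
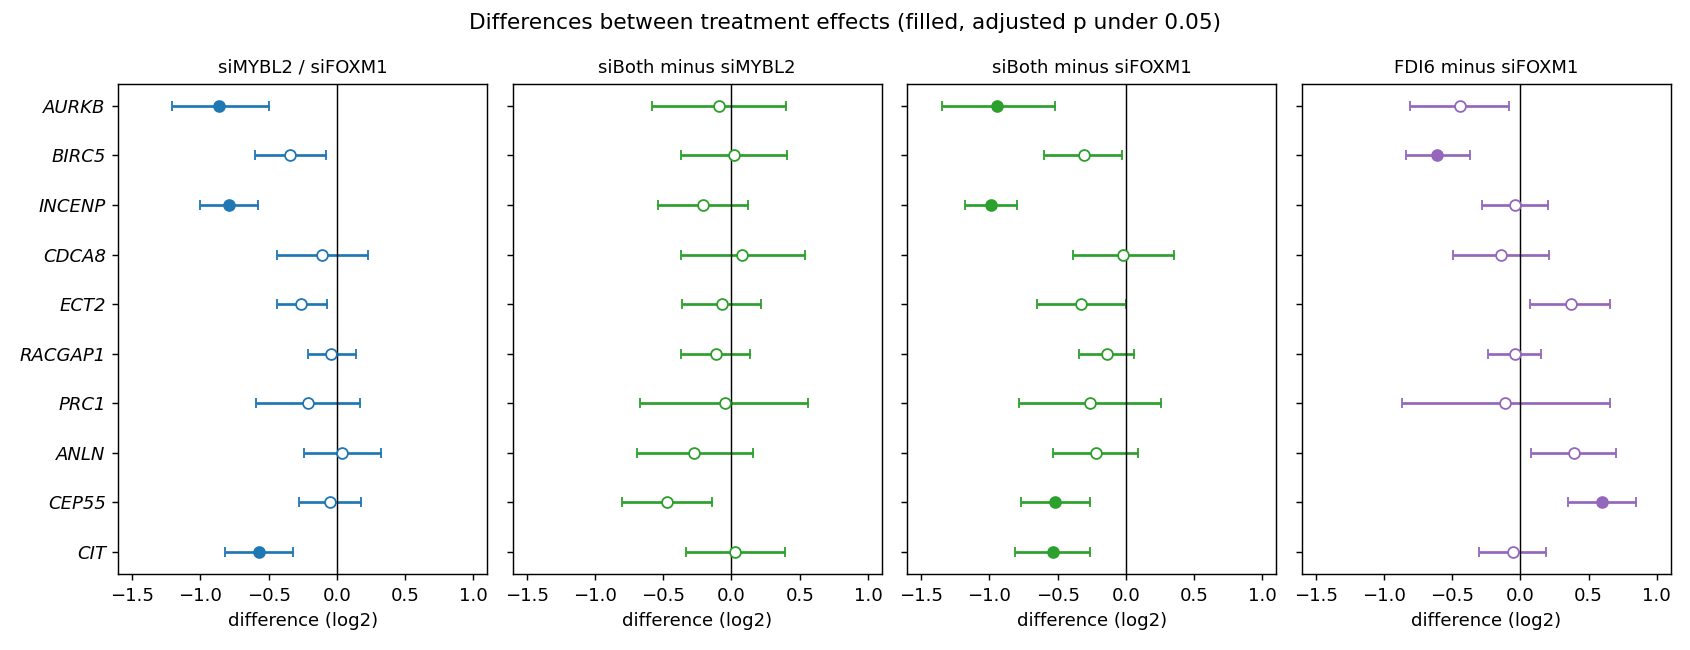
Differences between treatment effects on the log2 scale for the 10 genes, with 95% intervals as bars; filled points had an edgeR adjusted p under 0.05. AURKB, INCENP and CIT are lower in siMYBL2 than in siFOXM1, while CEP55 is at -0.05 there and at 0.60 in FDI6 minus siFOXM1.

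The machinery around the members was counted in 4 lists. The central spindle list (KIF23, KIF20A, KIF20B, KIF4A, KIF14, PLK1 and NUSAP1) had 4 of 7 genes called lower in siMYBL2, 1 in siFOXM1, 6 in siBoth and 1 in FDI6, with none higher. Its medians were -0.59, -0.17, -0.79 and -0.26. Over all genes, 3.52%, 0.591%, 3.64% and 5.77% were called lower in these 4 comparisons. KIF20A, the kinesin that carries the passenger complex to the central spindle, fell in siMYBL2 (log2 -0.84), siFOXM1 (-0.84) and siBoth (-2.21, edgeR adjusted p = 0.0061, 0.004 and 0.000157). KIF23, the partner of RACGAP1 in centralspindlin, fell in siMYBL2 (log2 -0.67) and siBoth (log2 -1.03, edgeR adjusted p = 0.0208 and 0.000376), while RACGAP1 itself had -0.14 and -0.25 without a call. In FDI6 the gene called was NUSAP1, a microtubule-bundling protein, which fell by 0.93 ± 0.273 (edgeR adjusted p = 0.0181). Its counts were low, at a mean of 1.55 CPM in FDI6 and 2.98 CPM in control_FDI6, so this value is uncertain.

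Of the genes that recruit or partner the passenger complex (HASPIN, BUB1, SGO1, SGO2, AURKA, AURKC and TPX2), SGO1 fell by 0.65 in siMYBL2 (edgeR adjusted p = 0.00422) among 6 tested, and 3 of 7 were called in siBoth. Those were SGO1 (fell by 0.74), SGO2 (fell by 0.67) and TPX2 (fell by 0.61), with edgeR adjusted p of 0.0184, 0.0221 and 0.00537. Over all genes, 3.52% were called lower in siMYBL2 and 3.64% in siBoth. SGO1 and SGO2 are the shugoshins of the centromere, and TPX2 activates AURKA. None was called in siFOXM1 or FDI6 by edgeR or DESeq2, with 1 and 2 at an unadjusted p under 0.05 in edgeR (13% and 47.7% of all genes). AURKA, the sister kinase of AURKB, was not called in any comparison. It passed the adjusted p inside the fold limit in siMYBL2 (-0.44, edgeR adjusted p = 0.0149) and FDI6 (-0.46, 0.000252). In siBoth it had -0.25 (0.0977) and in siFOXM1 0.06 (0.859).

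The contractile ring list, with RHOA, the myosins, formins and septins that ECT2 and ANLN act on, held 15 genes (14 with FDI-6). None was called by edgeR or DESeq2 in any of the 4 comparisons. At an unadjusted p under 0.05 in edgeR stood 3 to 7 genes (13% to 47.7% of all genes), and the medians ran from -0.04 to 0.05. Single values in siBoth ran from -0.57 (DIAPH3) to 1.26 (MYL9, at only 1.28 CPM). Genes that passed the adjusted p inside the fold limit went both ways, such as RHOA (-0.28, edgeR adjusted p = 0.00862) and SEPTIN6 (0.35, 0.0192) in siMYBL2. In the ESCRT list, the abscission machinery that CEP55 recruits, 1 of 17 genes was called: VPS4A, the ATPase of that machinery, fell by 0.71 ± 0.061 in siMYBL2 (edgeR adjusted p = 0.000238). VPS4A had -0.51 in siBoth, inside the fold limit. The 1 of 17 in siMYBL2 stood beside 3.52% of all genes called lower there. None of the 17 was called in siFOXM1, siBoth or FDI6 by edgeR or DESeq2, and at an unadjusted p under 0.05 in edgeR there were 0 in siFOXM1, 2 lower and 3 higher in siBoth, and 5 lower and 6 higher in FDI6. Of all genes, 13%, 29.6% and 47.7% stood there in these 3 comparisons. As a wider frame, the G2/M list of Seurat without the members had 16 of 49 genes called lower in siMYBL2, 5 in siFOXM1, 29 in siBoth and 3 in FDI6. Its medians were -0.44, -0.13, -0.67 and -0.14, beside -0.33, -0.09, -0.39 and -0.10 for the members. The shares of all genes called lower were 3.52%, 0.591%, 3.64% and 5.77% in these 4 comparisons, and 3 of 49 in FDI6 is near that share. The S-phase list had 7, 1, 6 and 0 of 42 genes called lower, and 1 called higher in FDI6, where 8% of all genes were called higher. At an unadjusted p under 0.05 in edgeR, 12 of the 42 were lower and 5 higher in FDI6 (47.7% of all genes in either direction).

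**Figure D5:**
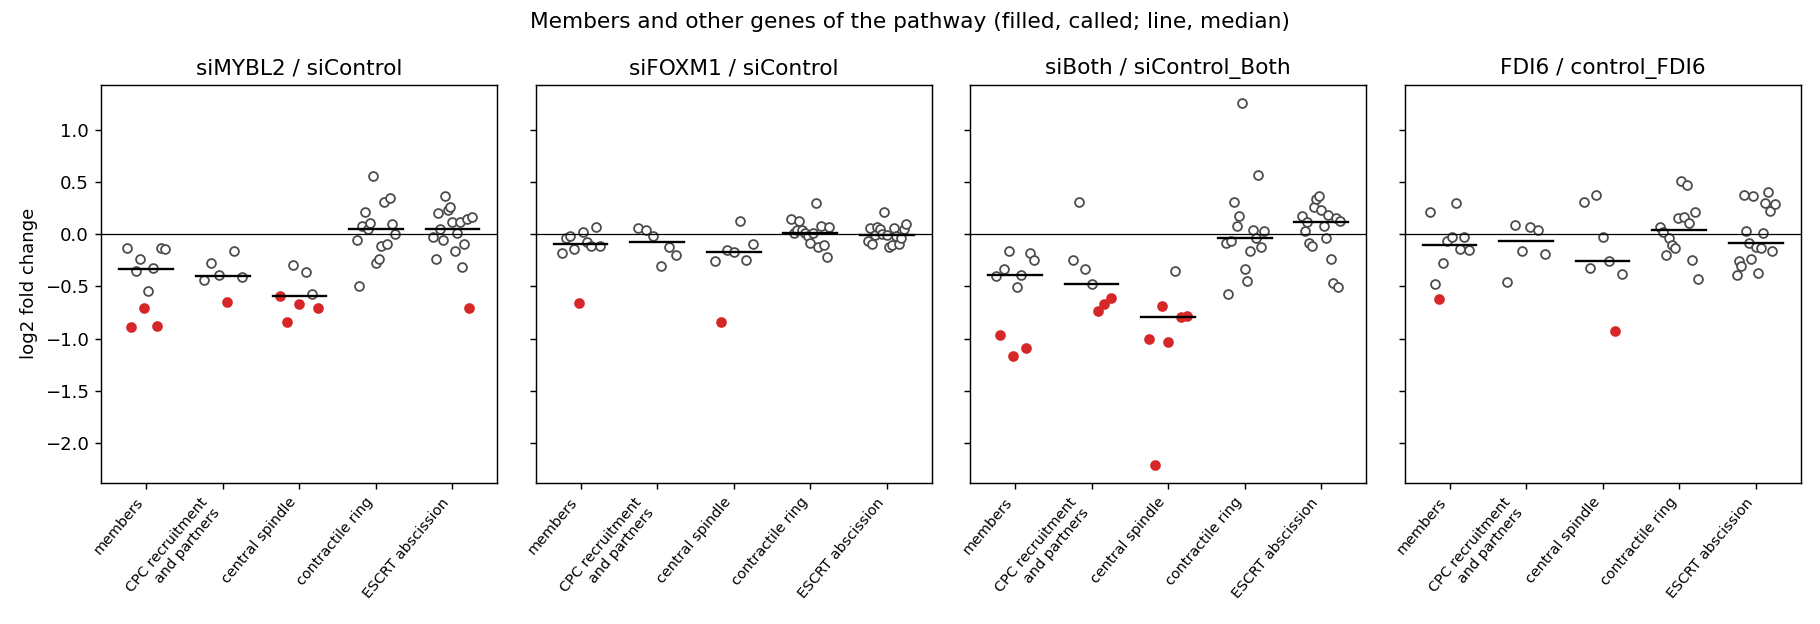
log2 fold change of the 10 members and of the genes of the 4 lists in each treatment against its own control, 1 point a gene; filled points were called and lines are medians. Central spindle genes reach the lowest value (KIF20A in siBoth, -2.21). Contractile ring genes have medians near 0 with none filled, and range from -0.57 to 1.26 in siBoth.

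The genes most like the members were found from log2(CPM + 1) minus the mean of each library's own control, over the 24 libraries and 11063 genes with a mean of at least 5 CPM. TPX2 (Pearson r = 0.974), NCAPH (0.968), KIF23 (0.968), HJURP (0.967) and ARHGAP11A (0.963) were closest to the mean profile of the members, where the median gene had an r of 0.066. Among the members themselves r ran from 0.942 for AURKB to 0.538 for ECT2, with CIT at 0.920, INCENP at 0.914 and CEP55 at 0.882. These values are descriptions across libraries that share treatments, controls and depth, and the members contribute to the profile they are compared with.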

How the data were processed

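Poly(A) RNA of A549 cells was sequenced as 150 bp read pairs in 24 libraries. The deposited values are unnormalized counts, 1 per gene, of read pairs. Per the labels and the methods of the study, the authors made them by trimming with Trim Galore, aligning to hg38 with STAR and counting on GENCODE V29 with HTSeq. Versions and the strand setting of the counting are not given in the sources used here, so reads from opposite-strand neighbours may not be separable. HTSeq's own totals (18.5% to 26.2% of pairs) were left out.

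Tests used edgeR 4.0.16 (R 4.3.3): TMM scaling within each comparison, filterByExpr, and the quasi-likelihood test over all genes with Benjamini-Hochberg adjustment, without a block. A gene was called when its fold change was over 1.5 and its adjusted p under 0.05, and differences between effects at an adjusted p under 0.05. CPM used TMM-scaled library sizes within each experiment, and levels per kilobase the GENCODE V44 canonical transcript. SE is the log2 fold change divided by the square root of F, and 95% intervals are normal intervals from it. With so few libraries they are narrower than the F test implies, so an interval can leave out 0 where the test does not pass. For the read-through gene of PRC1 in siMYBL2 the interval was -1.18 to -0.05 at an unadjusted edgeR p of 0.0597. The scripts were tested on simulated data. All members are named in the text, and list genes only where they are among the 3 largest changes called in a comparison or bear on a member. The members and lists were chosen with earlier results of these data known. S-phase and G2/M lists came from Seurat 5.3.0.

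Replicate numbers come from the labels. In the 3 knockdowns every same-numbered pair of libraries deviated together (lowest correlation 0.57 for siMYBL2, 0.537 for siFOXM1 and 0.552 for siBoth). In FDI6 they did not. No library repeated another (chi-square per gene of at least 3.57 within groups). The study describes its replicates as biological without saying how cultures were separated, so p-values measure the spread between these libraries. Alternatives were other scalings (upper quartile, RLE), other filters (none, or 10 counts per library), DESeq2 1.42.0, the replicate block, a GC and length correction (a spline of 5 degrees of freedom in each library), leaving out each library, and, chosen after seeing the data, PRC1 counts summed with its read-through gene.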

Additional observations from a re-analysis of the deposited data

How the results depend on the processing

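The 3 members called in siMYBL2 and in siBoth stayed called under every alternative run. Members called lower were 0 to 1 in siFOXM1 when a library was left out, and 0 in FDI6 with the GC and length correction, alone or with the replicate block. No member was called higher in any of these fits. The genes called, counted over the whole table, went with the replicate block from 1269 to 1991 in siMYBL2, from 106 to 401 in siFOXM1, from 1019 to 1849 in siBoth and from 2098 to 2013 in FDI6. With the block and the correction they were 1985, 386, 1592 and 1273. The correction alone gave 1333 for FDI6, and no filter gave 1545 for siBoth. Leaving out a library gave 56 to 115 for siFOXM1, with 56 and 69 without siFOXM1 replicates 1 and 3 and 66 and 68 without siControl replicates 1 and 2. It gave 587 to 1097 for siBoth, with 587 without siBoth replicate 2 and 589 and 643 without siControl_Both replicates 2 and 3.

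Members that differ between siMYBL2 and siFOXM1 numbered 5 with the replicate block, with or without the correction. Between siBoth and siMYBL2 effects 1 differed in both of these fits. Between siBoth and siFOXM1 effects there were 7 with the block, 2 with upper-quartile scaling, 2 with the correction, and 1 to 4 when a library was left out. Between FDI6 and siFOXM1 effects there were 5 with the block, 4 with block and correction, 5 without a filter and 2 to 4 when a library was left out. In FDI6, whose replicate numbers did not pair the libraries (mean correlation of same-numbered libraries -0.081), the block changed no member's call.

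Signs turned only for values that were not called. In FDI6 the correction gave -0.02 for ECT2 and -0.07 for ANLN, also with the block. PRC1 summed with its read-through gene had -0.18 in siFOXM1. Leaving out a library gave ranges in siFOXM1 of -0.16 to 0.08 for AURKB, -0.08 to 0.04 for BIRC5, -0.15 to 0.01 for ECT2, -0.04 to 0.20 for PRC1 and -0.07 to 0.07 for CIT, and in FDI6 of -0.43 to 0.24 for PRC1 and -0.06 to 0.02 for CIT. The cause of these shifts was not tested. Depth limits PRC1 alone among the members, since each of the others had at least 792 read pairs in every library.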

Other observations

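CEP55 and ECT2 also differed in level between the scrambled siRNA controls of the 2 siRNA experiments. CEP55 was at 134.9 ± 14.5 CPM (SD, n = 4) in siControl and at 90.1 ± 5.94 CPM (n = 3) in siControl_Both, and ECT2 at 352.0 ± 38.8 and 259.7 ± 17.7 CPM. BIRC5 was at 285.9 ± 11.4 CPM (n = 3) in control_FDI6, against 167.4 ± 17.3 and 159.3 ± 19.4 CPM in the 2 scrambled controls. These controls come from separate experiments that were scaled separately, and the differences were not tested.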
